A study of Mus musculus with 24 samples.

Results

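Noradrenaline acts on fat cells through cAMP, and 8 genes of that route were followed here in differentiating brown and white fat precursors with and without the long non-coding RNA *H19*. They were the beta-adrenergic receptor genes *Adrb1* and *Adrb3*, the adenosine receptor genes *Adora2a* and *Adora1*, the melanocortin receptor partner *Mrap*, the protein kinase A (PKA) genes *Prkaca* and *Prkar2b*, and the phosphodiesterase gene *Pde3b*. The genes were picked by symbol, and each matched a single row among the 49452 genes of the expression table. RNA had been sequenced as 24 libraries in 8 groups of 3. The groups combined a depot, interscapular brown fat (BAT) or perigonadal visceral white fat (vWAT), with a siRNA, non-targeting (siCtrl) or against *H19* (siH19), and with the day of differentiation, d0 or d3. The titles of all knockdown libraries carry the same siRNA label, siH19_3. Loss of *H19* and other effects of that siRNA thus cannot be told apart in any difference below. All cells were stromal vascular precursors, which also hold blood vessel and immune cells, from C57BL/6 mice, in the study's methods males aged 6 to 8 weeks with brown fat pooled between animals where needed. All cells, those of the controls included, received a siRNA by nucleofection before d0. Those of d3 had then been given insulin, dexamethasone and rosiglitazone with further inducers that the sources list differently by depot: isobutylmethylxanthine (IBMX), which itself blocks phosphodiesterases, is given for WAT and BAT in the labels and for WAT in the methods, beside indomethacin and triiodothyronine for BAT. The later medium held rosiglitazone for WAT and triiodothyronine for BAT, and the libraries of each depot formed a set of their own on both days. Depot and library set thus cannot be told apart at d0, nor depot, medium and library set at d3.

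In fat cells, beta-adrenergic receptors couple to the stimulatory G protein, which turns on adenylyl cyclase and raises cAMP. Cyclic AMP binds the regulatory subunits of PKA and frees its catalytic subunits, which phosphorylate perilipin and hormone-sensitive lipase to start lipolysis and, in brown fat, drive transcription of thermogenic genes such as *Ucp1*. Adenosine receptors of type 1 act through the inhibitory G protein and lower cAMP, those of type 2 raise it, MRAP carries the ACTH receptor MC2R to the cell surface, and PDE3B, which insulin activates, degrades cAMP.

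Values are FPKM, reads scaled to gene length and to library size, so levels of different genes can be compared per length. The table holds no read counts and its total depth is unknown. The worth of 1 read, as seen in the steps between low values, put the relative depth of the libraries between 0.825 and 1.17 of their median. *H19*, the target of the siRNA, was read first as a check on the labels. In BAT at d0 it was at 108, 160 and 122 FPKM in the siCtrl libraries and at 2.82, 5.20 and 5.05 in the siH19 libraries, and at d3 at 99.7, 86.4 and 83.2 against 12.04, 12.1 and 16.9. In vWAT it was at 12.3, 11.3 and 11.6 FPKM against 1.23, 0.630 and 1.76 at d0, and at 8.67, 8.19 and 8.90 against 0.327, 0.291 and 0.966 at d3. The mean of the siH19 libraries was 3.35%, 15.3%, 10.3% and 6.15% of the control mean in these 4 comparisons, and the groups overlapped in none. Markers of the depots went with the labels: the 4 visceral white markers *Wt1*, *Tcf21*, *Upk3b* and *Msln* were each under 1 FPKM in every BAT library and summed to 70.0 to 129 FPKM in vWAT, whereas of 6 brown fat markers *Zic1* and *Lhx8* were under 1 FPKM in all vWAT libraries and at group means of 3.39 to 5.24 and 8.22 to 16.8 FPKM in BAT. *Ucp1* and *Cidea* were under 1 FPKM in vWAT and also in BAT at d0, where they do not check the label, and *Prdm16* and *Ebf2* were present in both depots (group means of up to 1.29 and 5.70 FPKM in vWAT). In bulk RNA, fewer cells of a type and less RNA per cell cannot be told apart, and this holds for each difference below.

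A gene was called changed at a Benjamini-Hochberg adjusted p under 0.05 in limma and a fold change of at least 1.3, and an interaction at an adjusted p under 0.05. A gene was tested where 3 or more of the libraries compared reached an FPKM of 1. From d0 to d3 in siCtrl cells, 6 of the 7 genes tested rose in BAT and 6 of 6 rose in vWAT. *Adora1* entered both tests through its d3 libraries alone, and without it 5 of 6 rose in BAT and 5 of 5 in vWAT. None of the tested genes was called lower, but *Adora2a*, which the filter kept out, was lower at d3 in BAT in the fit without a filter (log2 fold change -0.47, limma adjusted p = 0.000567). Of all genes tested, 29.9% rose and 35.3% fell in BAT, and 26.3% rose and 23.9% fell in vWAT. At d0, 2 of the 6 genes tested were higher in BAT than in vWAT and 3 were lower, against 10.2% and 21% of all genes. At d3, 5 of 7 were higher in BAT and none was called lower, against 16.5% and 32.1%. Here too *Adora2a*, kept out by the filter, was lower in BAT in the fit without a filter (log2 difference -0.79, limma adjusted p = 0.000469). *Adrb1* is among those higher in BAT on both days and entered the test through its BAT libraries alone, and without it 1 of 5 was higher and 3 were lower at d0, and 4 of 6 were higher at d3. Rescaling the libraries by median ratios shifted the median log2 difference of all genes by 0.12 at d0 and 0.15 at d3, so that 1866 genes were higher and 1917 lower at d0 instead of 1343 and 2753, and 3005 higher and 3185 lower at d3 instead of 2162 and 4216. It left the calls of the 8 genes at 5 in both comparisons.

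Under the call rule, knockdown of *H19* was followed by more calls among the 8 genes at d0 than at d3, an order that depended on the settings. Without the fold limit, BAT had 2 calls at d0 and 4 at d3. Without the filter on low values or with a replicate block, BAT had 0 at d0 and 1 at d3. In BAT at d3, 1 of the 7 genes tested was called lower (*Adrb3*) and none higher, against 2.18% of all genes lower and 6.39% higher. In vWAT at d3 none of 6 was called, and the count was 0 under each alternative run, against 0.0229% of all genes lower and 0.00764% higher. At an unadjusted p under 0.05 in limma, *Adrb3* and *Prkaca* were lower there and *Prkar2b* and *Pde3b* higher. The share of all genes at that limit is not given here. At d0, 2 of 7 were called lower in BAT (*Adrb3* and *Mrap*) and 4 of 5 in vWAT (*Adrb3*, *Mrap*, *Prkar2b* and *Pde3b*), with none higher. Here 1.32% of all genes were lower and 0.617% higher in BAT, and 1.2% lower and 0.329% higher in vWAT. After rescaling, all genes split into 616 higher and 431 lower instead of 799 and 272 in BAT at d3, and into 61 and 128 instead of 43 and 157 in vWAT at d0. The calls at d0 rested on the full set of libraries and on the settings of the fit, and none of the 6 stood without the filter on low values or with a replicate block. In BAT at d0 none of the 8 genes was called without siCtrl replicate 1, 2 or 3 or siH19 replicate 3, *Adrb3* alone without siH19 replicate 1, and *Pde3b* alone without siH19 replicate 2. In vWAT at d0 the count was 4 without siH19 replicate 1, 0 without siCtrl replicate 2 or 3, and 1 without siCtrl replicate 1 or siH19 replicate 2 or 3.

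**Figure D1:**
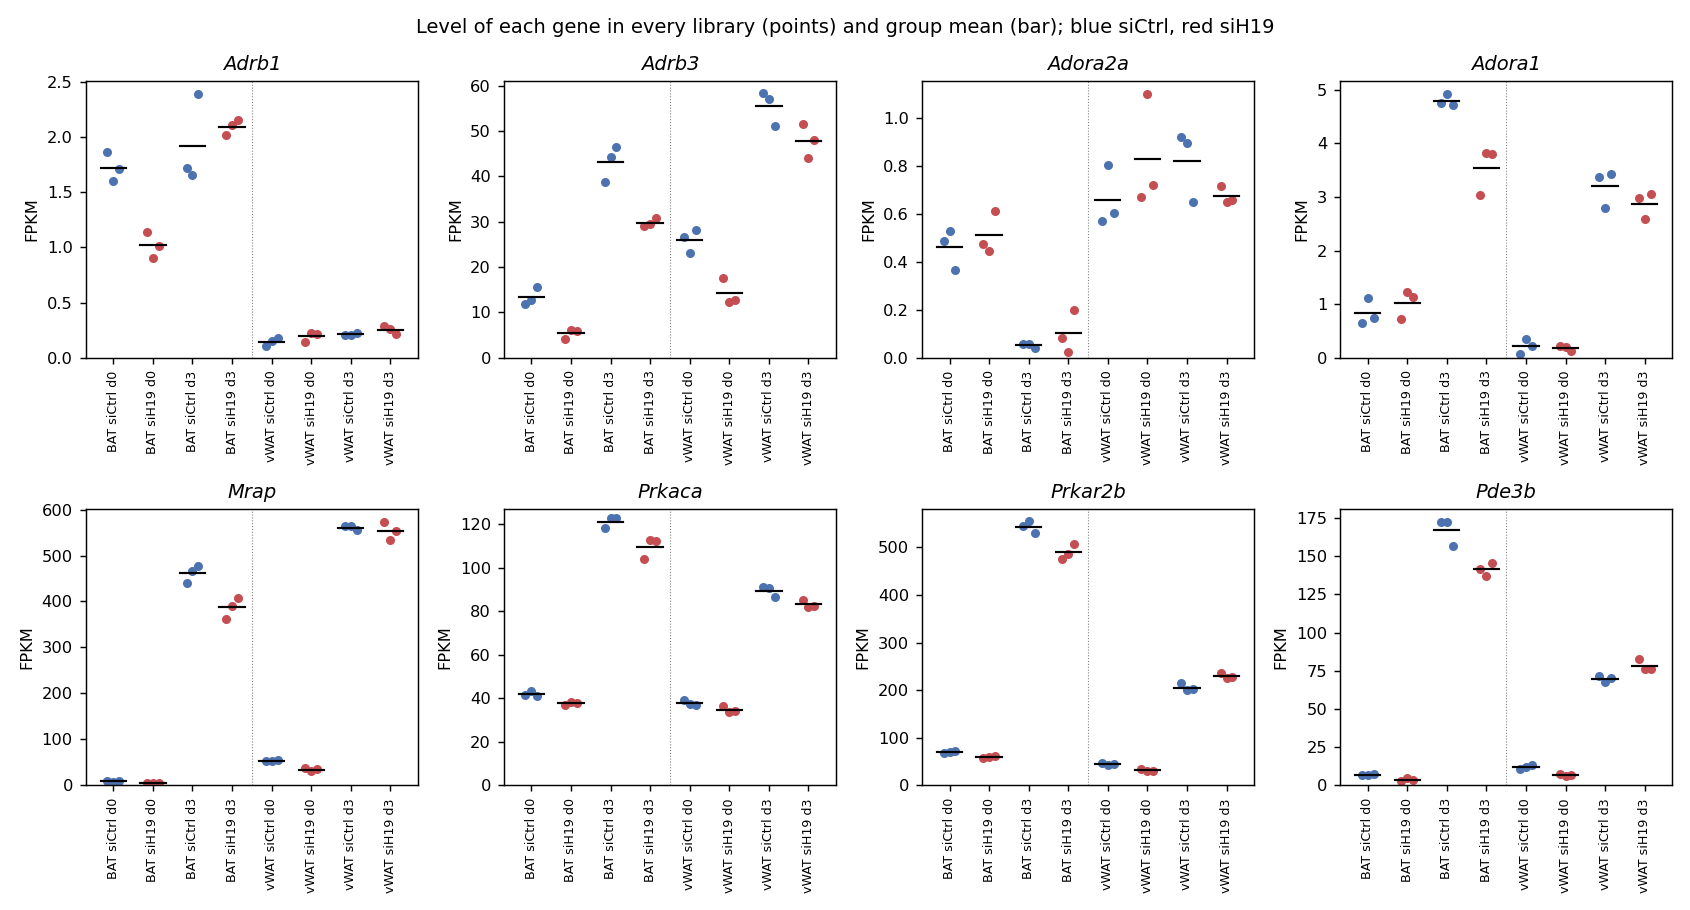
Level in FPKM (vertical axes, starting at 0) of the 8 genes in each of the 24 libraries (points) with the mean of 3 libraries (bars), siCtrl in blue and siH19 in red, BAT to the left and vWAT to the right of the dotted line. *Mrap*, *Prkaca*, *Prkar2b*, *Pde3b*, *Adrb3* and *Adora1* stand higher at d3 than at d0 in both depots, *Adrb1* is between 0.904 and 2.39 in BAT and at most 0.292 in vWAT, and *Adora2a* is lowest in BAT at d3.

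*Adrb3* encodes the beta-3 receptor, the main beta-adrenergic receptor of rodent adipocytes (ENSMUSG00000031489, minus strand of chromosome 8, 27225776 to 27250616 in GRCm38, overlapped by the antisense gene *Gm45470*). In BAT siCtrl cells it was at 11.8, 12.8 and 15.5 FPKM at d0 and at 38.8, 44.2 and 46.4 FPKM at d3. In BAT siH19 cells it was at 4.21, 6.10 and 5.96 FPKM at d0 and at 29.1, 29.4 and 30.9 FPKM at d3. The siH19 libraries of BAT thus lay below all siCtrl libraries of the same day. In vWAT siCtrl cells it was at 26.7, 23.1 and 28.3 FPKM at d0 and at 58.3, 57.1 and 51.1 FPKM at d3, and in siH19 cells at 17.6, 12.3 and 12.8 FPKM and at 51.6, 44.1 and 48.0 FPKM. Knockdown groups of vWAT were separate at d0 and overlapped at d3. At d3 in BAT the siH19 mean was 29.8 ± 0.98 FPKM against 43.1 ± 3.9 (SD, n = 3), a log2 fold change of -0.52 ± 0.074 (SE, limma adjusted p = 0.0071), and the call stood without any single library (adjusted p 0.00933 to 0.0345). At d0 the mean was 5.43 ± 1.1 against 13.4 ± 1.9 FPKM in BAT (log2 fold change -1.17 ± 0.15, adjusted p = 0.0255) and 14.2 ± 3.0 against 26.0 ± 2.6 FPKM in vWAT (-0.84 ± 0.14, adjusted p = 0.0447). With single libraries left out these adjusted p ran from 0.0469 to 0.0929 in BAT and from 0.0231 to 0.133 in vWAT, with log2 fold changes of -1.02 or lower in BAT and -0.75 or lower in vWAT. Both d0 calls were also lost without the filter on low values (adjusted p = 0.0663 in BAT and 0.127 in vWAT) and with a replicate block (0.0756 and 0.0813). In vWAT at d3 the difference was -0.21 ± 0.076 (adjusted p = 0.446), and the siH19 effects of the depots at d3 differed by -0.31 ± 0.11 (adjusted p = 0.114), which passed the test without BAT siCtrl replicate 1 (adjusted p = 0.0447) and in no other fit that left out a library.

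Both depots raised *Adrb3* with differentiation. The rise was 3.23-fold in BAT and 2.13-fold in vWAT (limma adjusted p = 1.51e-05 and 6.21e-05), and it was larger in BAT by 0.56 ± 0.15 on the log2 scale (interaction adjusted p = 0.0104). At d0, *Adrb3* was 1.95-fold higher in vWAT (adjusted p = 0.000971). At d3 the siCtrl libraries of vWAT still lay above those of BAT, but the 1.29-fold gap (log2 difference -0.36, BAT minus vWAT, adjusted p = 0.00794) was under the fold limit. It passed that limit without BAT siCtrl replicate 3 or vWAT siCtrl replicate 3, whereas median ratio scaling brought it to -0.19 (adjusted p = 0.0854). Ordered by mean level, the groups ran from vWAT siCtrl d3, vWAT siH19 d3, BAT siCtrl d3 and BAT siH19 d3 down to vWAT siCtrl d0, vWAT siH19 d0, BAT siCtrl d0 and BAT siH19 d0. Neighbours overlapped between the first and second, the second and the one after it, and between vWAT siH19 d0 and BAT siCtrl d0.

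*Adrb1* encodes the beta-1 receptor, which mediates noradrenaline signals in heart and in brown precursor cells (ENSMUSG00000035283, plus strand of chromosome 19, 56722199 to 56733113). Its libraries separated the depots. In BAT siCtrl cells it was at 1.87, 1.60 and 1.71 FPKM at d0 and at 1.72, 1.65 and 2.39 FPKM at d3, and in siH19 cells at 1.14, 0.904 and 1.01 FPKM at d0 and at 2.02, 2.11 and 2.15 FPKM at d3. In vWAT it was at 0.106, 0.148 and 0.182 FPKM (siCtrl d0), 0.202, 0.207 and 0.226 FPKM (siCtrl d3), 0.146, 0.224 and 0.213 FPKM (siH19 d0) and 0.292, 0.258 and 0.218 FPKM (siH19 d3). Every vWAT library was below every BAT library. The siCtrl means of d0 and d3 were 1.72 and 1.92 FPKM in BAT and 0.145 and 0.211 FPKM in vWAT. No fold or p is given for this gap, since *Adrb1* passed the filter on low values through its BAT libraries alone and no floor is known for the vWAT values. Unlike the other tested genes it did not pass the test from d0 to d3 in BAT, where the means were 1.72 ± 0.13 and 1.92 ± 0.41 FPKM (adjusted p = 0.494). At d0 in BAT the siH19 libraries all lay below the siCtrl libraries (1.02 ± 0.12 FPKM), with an adjusted p of 0.0747, and at d3 the groups overlapped (adjusted p = 0.657). In vWAT *Adrb1* was too low for the fit. An exact two-sided permutation test of 3 against 3 libraries, which cannot go below p = 0.1, gave p = 0.3 at d0 and p = 0.2 at d3.

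*Adora1* encodes the type 1 adenosine receptor, which restrains lipolysis in fat cells (ENSMUSG00000042429, minus strand of chromosome 1, 134199223 to 134235431, overlapped on the other strand by *Mybph*). In BAT siCtrl cells it went from 0.647, 1.12 and 0.740 FPKM at d0 to 4.76, 4.92 and 4.71 FPKM at d3, and in vWAT siCtrl cells from 0.0644, 0.356 and 0.221 FPKM to 3.36, 2.80 and 3.42 FPKM. In both depots the gene passed the filter on low values through its d3 libraries alone, so no fold or p is given for its rise. The rises of the depots did not differ past the test (limma interaction -0.12 on the log2 scale, adjusted p = 0.566). With a pseudocount of 0.1 in place of 1 that difference was -1.09, the larger rise being that of vWAT (adjusted p = 0.0694). At d3 it was 1.501-fold higher in BAT (adjusted p = 0.00319). In siH19 cells it was at 0.717, 1.23 and 1.14 FPKM in BAT at d0, at 3.03, 3.82 and 3.80 FPKM in BAT at d3, at 0.214, 0.196 and 0.133 FPKM in vWAT at d0, and at 2.98, 2.58 and 3.06 FPKM in vWAT at d3. At d3 in BAT all siH19 libraries lay below all siCtrl libraries, with a log2 fold change of -0.36 ± 0.099 that missed the threshold (adjusted p = 0.0558, also under the fold limit) and passed both after rescaling (-0.40, adjusted p = 0.0394). In vWAT the difference was -0.11 ± 0.098 (adjusted p = 0.765).

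*Adora2a* encodes the type 2a adenosine receptor, well known on immune cells and also present on brown adipocytes (ENSMUSG00000020178, plus strand of chromosome 10, 75316877 to 75334784). It was under the filter in all comparisons and went the opposite way from *Adora1* in BAT. In BAT it was at 0.486, 0.529 and 0.368 FPKM (siCtrl d0), 0.477, 0.444 and 0.613 FPKM (siH19 d0), 0.0582, 0.0587 and 0.0402 FPKM (siCtrl d3) and 0.0818, 0.0222 and 0.199 FPKM (siH19 d3). In vWAT it was at 0.570, 0.805 and 0.606 FPKM (siCtrl d0), 0.670, 1.10 and 0.722 FPKM (siH19 d0), 0.923, 0.897 and 0.649 FPKM (siCtrl d3) and 0.716, 0.650 and 0.657 FPKM (siH19 d3). The BAT libraries of d3 lay below those of d0, and the 2 days overlapped in vWAT. The siH19 and siCtrl groups overlapped in each depot and day (exact two-sided permutation p = 0.4 to 0.6, smallest possible 0.1). Summed levels of 6 macrophage markers in siCtrl cells stood at 130 to 163 FPKM at d0 and 126 to 158 FPKM at d3 in BAT. In vWAT they stood at 277 to 309 FPKM and 468 to 509 FPKM. *Lyz2* made up most of the d3 sums, with means of 128 FPKM in BAT and 443 FPKM in vWAT. The part of macrophages in the level of *Adora2a* was not tested. Together with *Adora2b*, the gene of type 2b, the adenosine receptors differed by depot: *Adora2b* held 77.7 ± 1.2% of their summed FPKM in vWAT siCtrl cells at d3 (14.0 FPKM) and 5.63 ± 2.7% in BAT (0.290 FPKM), where *Adora1* held 93.4 ± 2.5%.

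*Mrap* (ENSMUSG00000039956, plus strand of chromosome 16, 90738207 to 90749785) rose most of the 8 genes in BAT. Cells of BAT with siCtrl went from 9.07, 8.19 and 8.53 FPKM at d0 to 441, 466 and 478 FPKM at d3. In vWAT siCtrl cells it started higher, at 52.4, 53.2 and 55.8 FPKM, and reached 563, 564 and 556 FPKM. The rise was 53.7-fold in BAT (limma adjusted p = 1.1e-08) and 10.4-fold in vWAT (adjusted p = 3.06e-08), a difference of 2.23 ± 0.061 on the log2 scale (interaction adjusted p = 1.64e-09). The depots were 6.25-fold apart at d0 (adjusted p = 7.24e-07), with vWAT higher, and 1.22-fold apart at d3. In siH19 cells it was at 5.44, 4.19 and 4.98 FPKM in BAT at d0, at 363, 391 and 407 FPKM in BAT at d3, at 37.1, 30.4 and 35.0 FPKM in vWAT at d0, and at 573, 534 and 553 FPKM in vWAT at d3. The siH19 libraries lay below the siCtrl libraries in BAT on both days and in vWAT at d0, and overlapped with them in vWAT at d3. At d0 the log2 fold change was -0.71 ± 0.099 in BAT (adjusted p = 0.0255) and -0.64 ± 0.078 in vWAT (adjusted p = 0.0157). The BAT call was lost without any 1 of the 6 libraries (adjusted p 0.0516 to 0.101), and the vWAT call without siCtrl replicate 1, 2 or 3 (adjusted p 0.0261 to 0.0772 over the 6 fits). Both were also lost without the filter on low values (adjusted p = 0.07 in BAT and 0.0538 in vWAT) and with a replicate block (0.0819 and 0.0707). At d3 in BAT the difference was -0.25 ± 0.054 (adjusted p = 0.0245), under the 1.3-fold limit, and in vWAT -0.02 ± 0.034 (adjusted p = 0.898).

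Of the melanocortin receptor genes, *Mc2r* and *Mc5r* were read beside *Mrap*, *Mc2r* after its values were seen. *Mc2r*, the ACTH receptor gene, was at 0.466 FPKM at d0 and 11.3 FPKM at d3 in BAT siCtrl cells, and at 0.994 and 12.6 FPKM in vWAT. *Mc5r* was at 0.0619 and 13.6 FPKM in BAT and at 0.0685 and 12.5 FPKM in vWAT. Both passed the filter on low values through their d3 libraries alone. After *H19* knockdown in BAT at d3, *Mc5r* fell to 8.70 FPKM (log2 fold change -0.60 ± 0.089, adjusted p = 0.00807), whereas *Mc2r* was at 9.15 against 11.3 FPKM (-0.27 ± 0.087, adjusted p = 0.0826). *Mrap2*, the paralogue of *Mrap*, was listed at 0 in the BAT and vWAT groups of each siRNA and day.

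*Prkaca* encodes the catalytic subunit alpha of PKA (ENSMUSG00000005469, plus strand of chromosome 8, 83972993 to 83996443). With siCtrl in BAT it went from 41.4, 43.4 and 41.0 FPKM at d0 to 118, 123 and 123 FPKM at d3, and in vWAT from 39.4, 37.5 and 36.8 FPKM to 91.3, 90.6 and 86.5 FPKM. The rise was 2.89-fold in BAT and 2.36-fold in vWAT (limma adjusted p = 1.79e-07 and 1.82e-06), larger in BAT by 0.29 ± 0.055 on the log2 scale (interaction adjusted p = 0.00114), and the gene was 1.35-fold higher in BAT at d3 (adjusted p = 8.63e-05). In siH19 cells it was at 36.9, 38.2 and 37.8 FPKM in BAT at d0, at 104, 113 and 112 FPKM in BAT at d3, at 36.3, 33.6 and 34.4 FPKM in vWAT at d0, and at 85.1, 82.0 and 82.2 FPKM in vWAT at d3. In all 4 comparisons the siH19 libraries lay below the siCtrl libraries, by log2 fold changes of -0.11 to -0.15, and none passed the test (adjusted p 0.0844 to 0.446). Its paralogue *Prkacb* was at 28.6 and 22.3 FPKM in BAT siCtrl cells at d0 and d3, so that *Prkaca* went from 59.5 ± 2.9% to 84.5 ± 1.4% of the catalytic subunits in BAT and from 53.8 ± 2.9% to 77.2 ± 2.8% in vWAT.

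*Prkar2b* encodes the regulatory subunit RII beta, the form that predominates in fat (ENSMUSG00000002997, minus strand of chromosome 12, 31958476 to 32061296). Its level in BAT siCtrl cells was 68.3, 70.0 and 72.4 FPKM at d0 and 545, 555 and 529 FPKM at d3. In vWAT siCtrl cells it was at 46.2, 42.6 and 45.7 FPKM and at 214, 200 and 201 FPKM. The rise was 7.73-fold in BAT and 4.58-fold in vWAT (limma adjusted p = 1.6e-08 and 3.28e-07), larger in BAT by 0.76 ± 0.059 on the log2 scale (interaction adjusted p = 1.46e-06). The gene was higher in BAT on both days, by 1.57-fold at d0 and 2.64-fold at d3 (adjusted p = 8.87e-05 and 8.42e-07). In siH19 cells it was at 57.8, 60.6 and 62.3 FPKM in BAT at d0, at 476, 485 and 508 FPKM in BAT at d3, at 34.2, 30.4 and 29.3 FPKM in vWAT at d0, and at 236, 226 and 228 FPKM in vWAT at d3. The siH19 libraries were thus lower than the siCtrl libraries in 3 of the comparisons and higher in vWAT at d3. The log2 fold change at d3 was -0.15 ± 0.038 in BAT (adjusted p = 0.0437, under the fold limit) and 0.16 ± 0.039 in vWAT (adjusted p = 0.338). At d0 it was -0.22 ± 0.046 in BAT (adjusted p = 0.0603) and -0.51 ± 0.070 in vWAT (adjusted p = 0.0235), a call that was lost without any 1 library but siH19 replicate 1 (adjusted p 0.0261 to 0.0935 over the 6 fits).

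The make-up of the PKA regulatory subunits turned over during differentiation. *Prkar2b* went from 25.3 ± 0.99% of the summed FPKM of the 4 subunit genes to 78.2 ± 1.1% in BAT siCtrl cells, and from 14.3 ± 0.077% to 51.7 ± 1.7% in vWAT. *Prkar1a* (RI alpha) was the largest at d0, with 51.1 ± 0.22% in BAT and 61.9 ± 1.4% in vWAT. *Prkar2a* (RII alpha) fell by 0.99 on the log2 scale in BAT, from 57.7 to 28.6 FPKM (limma adjusted p = 4.58e-05), and *Prkar1b* (RI beta) from 7.87 to 1.46 FPKM (adjusted p = 0.000285), while *Prkar1a* went from 142 to 121 FPKM, under the fold limit. The summed regulatory subunits were at 694 ± 9.2 FPKM in BAT siCtrl cells at d3 and the summed catalytic subunits at 144 ± 4.3 FPKM. In BAT siH19 cells at d3 *Prkar2b* held 75.1 ± 0.022%.

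**Figure D2:**
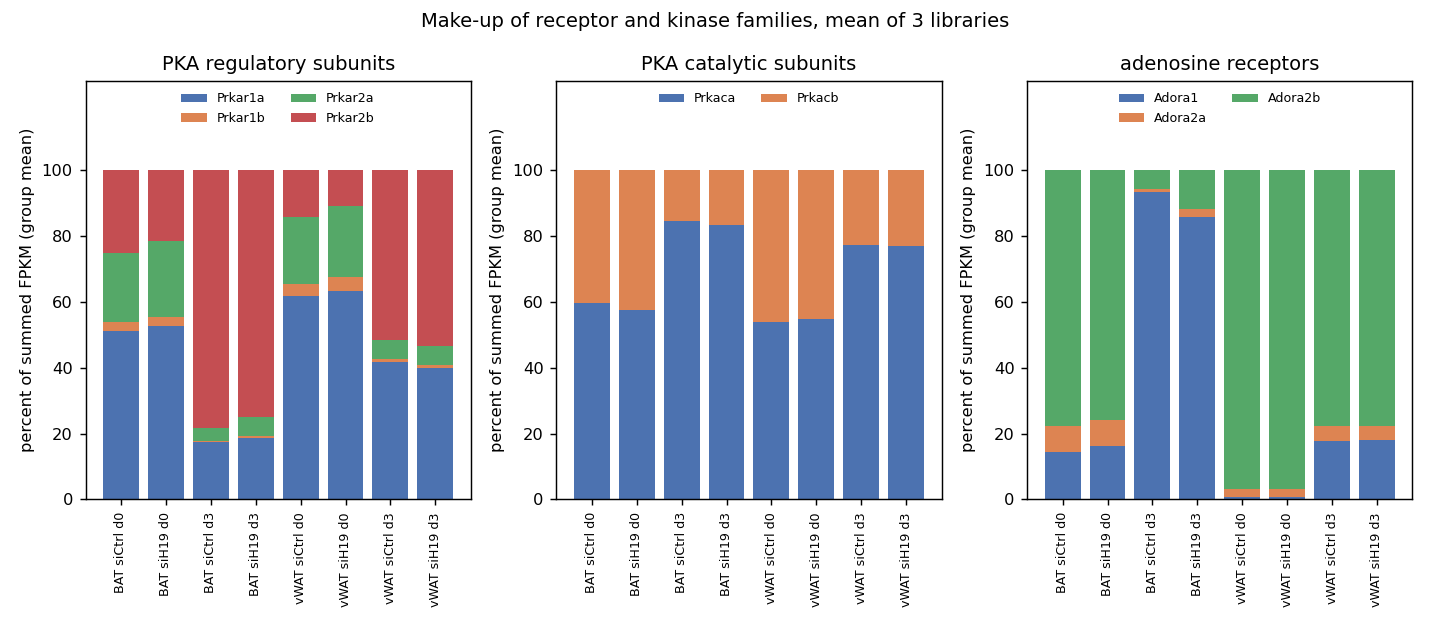
Share of the summed FPKM (percent, vertical axes, mean of 3 libraries) that each gene held in the PKA regulatory, PKA catalytic and adenosine receptor families in the 8 groups. *Prkar2b* grew from 25.3% to 78.2% of the PKA regulatory subunits in BAT siCtrl cells, and *Adora1* from 14.4% to 93.4% of the adenosine receptors.

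Promoters of 4 of the 8 genes were found in RefSeq (*Adrb1*, *Adora1*, *Prkaca* and *Prkar2b*), and none for *Adrb3*, *Adora2a*, *Mrap* and *Pde3b*. The 250 bases before the annotated start are shown for *Prkaca* and *Prkar2b*, which rose together in both depots, and for *Adrb1*, which did not pass the test. Capitals mark TGACG, the core of the cAMP response element, and the E-box CACGTG, on either strand. They come from GRCm38.p6, chr8:83972728-83972977 on the plus strand, chr12:32061278-32061527 on the minus strand and chr19:56721867-56722116 on the plus strand, each written 5′ to 3′ along the gene.
Prkaca: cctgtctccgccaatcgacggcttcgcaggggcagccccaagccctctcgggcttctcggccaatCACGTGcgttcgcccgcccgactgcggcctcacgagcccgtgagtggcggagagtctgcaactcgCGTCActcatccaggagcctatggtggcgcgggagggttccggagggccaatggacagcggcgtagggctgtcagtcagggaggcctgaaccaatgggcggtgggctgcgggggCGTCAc
Prkar2b: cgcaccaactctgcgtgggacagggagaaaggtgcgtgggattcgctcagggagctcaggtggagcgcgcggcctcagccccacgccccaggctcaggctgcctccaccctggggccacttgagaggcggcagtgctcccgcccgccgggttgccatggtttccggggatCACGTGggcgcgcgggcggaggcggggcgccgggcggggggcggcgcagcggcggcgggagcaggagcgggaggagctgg
Adrb1: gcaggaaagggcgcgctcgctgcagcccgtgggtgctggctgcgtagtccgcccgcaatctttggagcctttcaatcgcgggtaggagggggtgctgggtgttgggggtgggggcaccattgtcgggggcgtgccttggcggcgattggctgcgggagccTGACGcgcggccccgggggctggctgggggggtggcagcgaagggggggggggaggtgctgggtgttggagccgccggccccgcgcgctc
TGACG was found starting 120 and 6 bases before the start of *Prkaca*, both on the minus strand, and 90 bases before that of *Adrb1*, and 17.8% of 32851 windows of this length in the table held it on either strand. CACGTG stood 185 bases before *Prkaca* and 80 bases before *Prkar2b*, against 6.02% of windows. GGGCGG, the GC box, was in all 4 promoters, *Adora1* included, against 32.7% of windows, and TATAAA was in none, against 12.4%. These windows are rich in G and C, 64.4% to 75.6% against a median of 52.4%. They are matches of letters and say nothing of binding.

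*Pde3b* (ENSMUSG00000030671, plus strand of chromosome 7, 114415281 to 114539251) became the most abundant of the 16 phosphodiesterase genes listed, in cells of both depots. In BAT siCtrl cells it went from 6.77, 6.74 and 7.20 FPKM at d0 to 173, 172 and 157 FPKM at d3. In vWAT siCtrl cells it went from 10.8, 12.04 and 13.1 FPKM to 71.6, 67.8 and 70.3 FPKM. The rise was 24.2-fold in BAT and 5.82-fold in vWAT (limma adjusted p = 1.6e-08 and 8.05e-07), a difference of 1.96 ± 0.093 on the log2 scale (interaction adjusted p = 3.69e-08). The order of the depots turned with it: vWAT was 1.74-fold higher at d0 (adjusted p = 0.000634) and BAT 2.39-fold higher at d3 (adjusted p = 2.79e-06). In siH19 cells it was at 2.77, 4.99 and 3.63 FPKM in BAT at d0, at 141, 137 and 146 FPKM in BAT at d3, at 7.47, 6.35 and 6.98 FPKM in vWAT at d0, and at 82.6, 75.9 and 76.1 FPKM in vWAT at d3. As for *Prkar2b*, the siH19 libraries lay below the siCtrl libraries except in vWAT at d3, where they lay above. At d3 the log2 fold change was -0.24 ± 0.051 in BAT (adjusted p = 0.0257, under the fold limit) and 0.16 ± 0.048 in vWAT (adjusted p = 0.38). At d0 it was -0.75 ± 0.17 in BAT (adjusted p = 0.0708, and 0.0497 without siH19 replicate 2) and -0.71 ± 0.094 in vWAT (adjusted p = 0.0211), a call that was lost without siCtrl replicate 2 or 3 or siH19 replicate 2 or 3 (adjusted p 0.0468 to 0.0968 over the 6 fits). Summed over 16 phosphodiesterase genes, *Pde3b* held 6.92 ± 0.17% in BAT siCtrl cells at d0 and 69.6 ± 2.0% at d3, and 11.01 ± 0.93% and 42.6 ± 1.8% in vWAT. Its paralogue *Pde3a* went the other way, from 19.9 to 0.612 FPKM in BAT and from 15.9 to 8.93 FPKM in vWAT. In BAT *Pde3a* passed the filter on low values through its d0 libraries alone, so no fold or p is given.

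**Figure D3:**
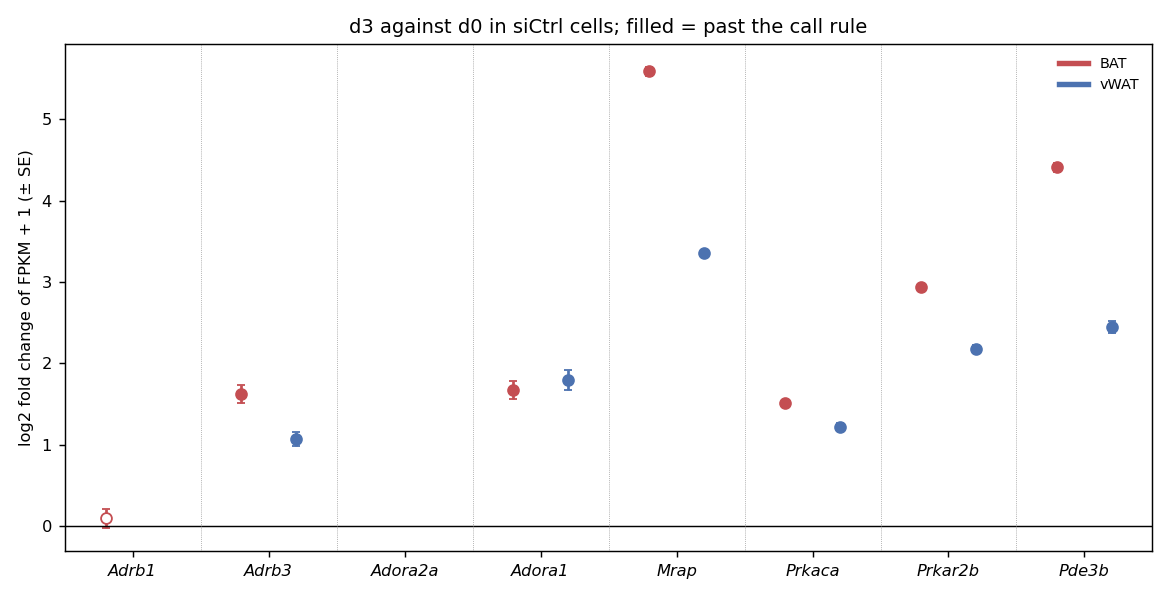
Log2 fold change of FPKM + 1 from d0 to d3 in siCtrl cells (vertical axis, error bars SE of the limma fit on 6 libraries) for BAT in red and vWAT in blue, with filled points for genes past the call rule. *Mrap* (5.59 in BAT, 3.36 in vWAT) and *Pde3b* (4.41 and 2.45) stand highest on this scale, which understates low genes such as *Adora1* in vWAT (1.79, and 3.51 with a pseudocount of 0.1), and genes without a point were too low to test.

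When the changes from d0 to d3 were set against each other between depots in siCtrl cells, 5 of the 7 genes tested (*Mrap*, *Pde3b*, *Prkar2b*, *Adrb3* and *Prkaca*) rose more in BAT than in vWAT, and *Adrb1* and *Adora1* did not differ past the test. *Adrb1* entered it through its BAT libraries alone and *Adora1* mainly through its d3 libraries. Changes of low values are understated on this scale, so the test says little about *Adrb1* and *Adora1*. Of all genes, 53% passed that interaction. All 10 adipocyte markers (such as *Adipoq*, *Fabp4* and *Plin1*) rose in both depots as well, their summed level going from between 3348 and 3645 to between 41049 and 42835 FPKM in BAT, and from between 4410 and 4445 to between 20857 and 21812 FPKM in vWAT, and the part of the number of adipocytes in the rises above was not tested.

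The effect of *H19* knockdown at d3 differed between depots for 3 of the 7 genes tested, *Pde3b*, *Prkar2b* and *Mrap*, whereas 10.5% of all genes passed that interaction. *Adrb1*, which was among the 7, entered the test through its BAT libraries alone. On the log2 scale, the effect in BAT minus that in vWAT was -0.40 ± 0.070 for *Pde3b* (limma adjusted p = 0.00643), -0.31 ± 0.052 for *Prkar2b* (adjusted p = 0.00527) and -0.23 ± 0.065 for *Mrap* (adjusted p = 0.0455). *Pde3b* was at 84.6% of the control mean in BAT and 111.9% in vWAT, and *Prkar2b* at 90.2% and 111.9%. The calls of *Pde3b* and *Prkar2b* stood without any single library (highest adjusted p 0.0201 and 0.0173), and those of *Pde3b* and *Mrap* were lost when the spread was taken from all 24 libraries (adjusted p = 0.103 and 0.145). The call of *Mrap* was lost in 9 of 12 fits without a single library (adjusted p up to 0.106) and stood without BAT siCtrl replicate 1, BAT siH19 replicate 3 or vWAT siH19 replicate 2. It was also lost with a replicate block (adjusted p = 0.0664) and without the filter on low values (0.0944). Rescaling left all 3 calls in place and turned the split of all genes from 966 higher and 485 lower in BAT to 620 and 797. Adipocyte genes moved the same way: 6 of 10 adipocyte markers passed the same interaction (*Adipoq*, *Fabp4*, *Cidec*, *Lipe*, *Plin1* and *Lpl*), all 10 were negative, and their median was -0.23. The count of 6 went to 1 without the filter or with the spread from 24 libraries, and to between 2 and 6 without a single library. Of 6 lipolysis genes, which share *Lipe* and *Plin1* with that list, 4 passed and were lower. The precursor markers *Ly6a*, *Pdgfra* and *Pdgfrb* passed as higher, 3 of 6 tested, and the macrophage markers *Lyz2*, *Adgre1* and *Cd68* as lower, 3 of 5 tested. The part of these cells in the 3 calls was not tested.

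The effect of knockdown in BAT also differed between the days for *Mrap*, as 1 of the 7 genes tested, against 9.06% of all genes. The difference was smaller at d3 by 0.46 ± 0.11 on the log2 scale (limma adjusted p = 0.0262). *Adrb3* (0.65 ± 0.18, adjusted p = 0.0506) and *Adrb1* (0.52 ± 0.15, adjusted p = 0.0519) stood just short of the threshold in the same direction, and *Adora1* was at -0.50 ± 0.18 (adjusted p = 0.122). Rescaling shifted the median of all genes by -0.10 and left the interaction of *Mrap* at 0.35 (adjusted p = 0.0994, and 0.0526 without the filter on low values), with 486 genes higher and 355 lower instead of 1058 and 172. The *Mrap* call was also lost without BAT siCtrl d0 replicate 1 or 3, BAT siCtrl d3 replicate 1 or 2, or BAT siH19 d3 replicate 2 or 3 (adjusted p up to 0.0603). *Adrb3* passed with a replicate block (adjusted p = 0.0175) and without BAT siCtrl d0 replicate 1 or siH19 d0 replicate 2 (lowest adjusted p 0.0464), *Adrb1* without BAT siCtrl d3 replicate 3 (0.014), and *Pde3b* without BAT siH19 d0 replicate 2 (0.00822). Adipocyte markers passed the same interaction in the same direction as *Mrap* in 7 of 10 cases, with 10 of 10 positive and a median of 0.73, as did 4 of 6 lipolysis genes, and the part of these cells was not tested. The 7 became 5 after rescaling or without the filter, and 5 to 8 without a single library.

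**Figure D4:**
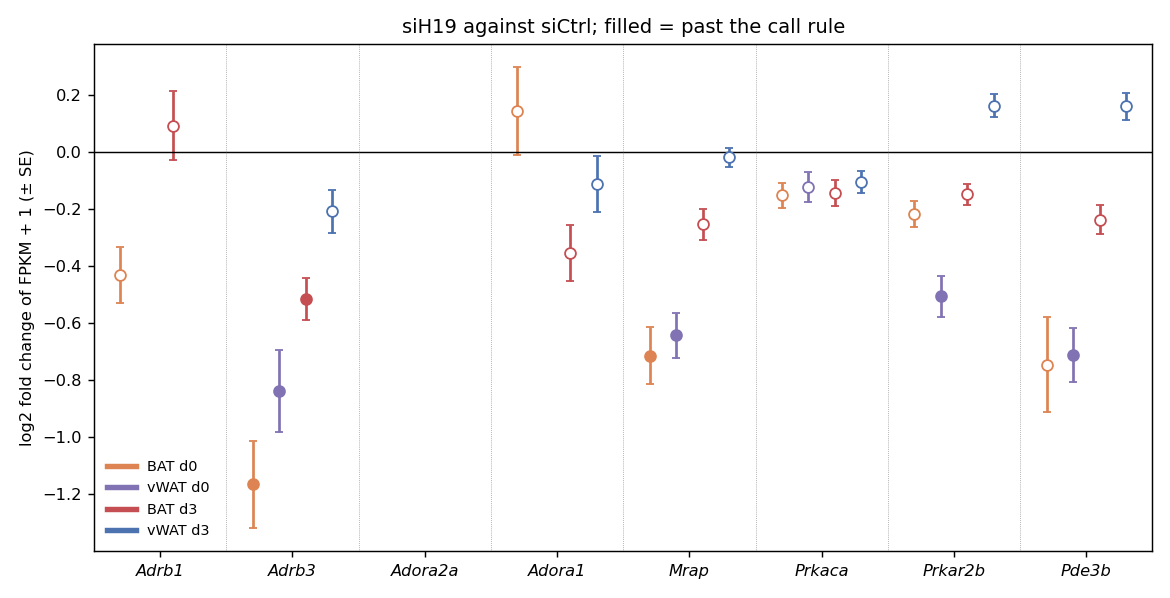
Log2 fold change of FPKM + 1 in siH19 against siCtrl cells (vertical axis, error bars SE of the limma fit on 6 libraries) for each gene and the 4 depots and days, with filled points for genes past the call rule. *Adrb3*, *Mrap* and *Pde3b* lie lower at d0 than at d3, and at d3 *Prkar2b* and *Pde3b* lie below 0 in BAT and above 0 in vWAT.

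Other cell markers moved with these comparisons. At d0, 7 of 10 adipocyte markers were called lower in BAT siH19 cells and 8 of 10 in vWAT, and their summed level was 1707 to 2269 against 3348 to 3645 FPKM in BAT and 2629 to 2967 against 4410 to 4445 FPKM in vWAT. Like those of the 8 genes, these calls rested on the settings: the 7 in BAT became 2 without the filter on low values and 0 to 6 without a single library, the 8 in vWAT became 6 and 5 to 7, and both became 0 with a replicate block. The lower levels of *Adrb3* and *Mrap* at d0 in BAT, and of *Adrb3*, *Mrap*, *Prkar2b* and *Pde3b* in vWAT, thus came with lower levels of general adipocyte genes, whose part was not tested. Macrophage markers were lower in BAT at d0 as well, with sums of 98.98 to 99.7 against 130 to 163 FPKM, of which 1 of 5 tested was called (*Lyz2*). At d3 in BAT none of the 10 adipocyte markers was called, with sums of 37364 to 39726 against 41049 to 42835 FPKM. At the same time 3 of 4 precursor markers tested were higher (sums of 495 to 527 against 277 to 316 FPKM) and 2 of 5 macrophage markers were lower (79.2 to 90.6 against 126 to 158 FPKM, *Ptprc* under 1 FPKM in both groups). Of 6 brown adipocyte markers 1 was higher and 2 were lower (40.0 to 42.2 against 54.5 to 67.1 FPKM in sum). Of skeletal muscle markers 1 of 3 tested was higher, *Des* (25.8 against 18.7 FPKM, adjusted p = 0.0457), with sums of 36.3 to 45.04 against 26.4 to 32.7 FPKM, and of endothelial and nerve markers none of 2 and none of 1 tested was called. The part of these cells in the difference in *Adrb3* was not tested. In vWAT at d3 none of the adipocyte, precursor or macrophage markers was called.

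The wider pathway was described with a list of 107 further genes in 11 roles, of which 104 were found. *Pde2a* has 2 rows in the table, which makes 105 rows, and 72 were tested in BAT at d3. After *H19* knockdown there, 7 were higher and 5 lower, against 6.39% and 2.18% of all genes. The median log2 fold change was 0.06 against 0.05 for all genes. Among receptors of the stimulatory G protein, *Adcyap1r1*, the PACAP receptor gene, rose from 9.34 to 17.8 FPKM (limma adjusted p = 0.00384), the opposite direction from *Adrb3* and *Mc5r*. Among genes that handle cAMP, the phosphodiesterase gene *Pde1b* rose (1.23 to 2.30 FPKM, adjusted p = 0.0337). The cyclase gene *Adcy2* is also among the 7 called higher (0.654 to 1.24 FPKM). Its siCtrl mean was under the filter limit of 1 FPKM, so no p is given. Of the anchors that tether PKA, *Akap12* rose 2.14-fold (17.7 to 37.9 FPKM, adjusted p = 0.00399) and *Akap7* was lower at 35.0 against 46.7 FPKM (adjusted p = 0.0387). With the 8 genes counted in their roles, none of 4 G protein alpha subunits, 6 CREB factors and coactivators, 4 receptors of the inhibitory G protein, 6 accessory and desensitisation proteins or 8 PKA subunits and inhibitors tested was called. Downstream, *Ucp1*, the uncoupling protein gene of brown fat, was at 2.85 against 12.1 FPKM (log2 fold change -1.75 ± 0.24, adjusted p = 0.0062), and *Dusp1*, an immediate early gene, rose 1.35-fold (adjusted p = 0.0304). Of 6 lipolysis genes, 1 passed, *Pnpla2*, the adipose triglyceride lipase gene, at 2127 against 2776 FPKM (adjusted p = 0.00506), and all 6 had a negative log2 fold change. In vWAT at d3 none of the 72 further genes tested was called, and at d0 2 were higher and 5 lower of 73 in BAT, and 0 higher and 6 lower of 74 in vWAT. Of all genes at d0, 0.617% were higher and 1.32% lower in BAT, and 0.329% higher and 1.2% lower in vWAT. The 6 called in vWAT at d0 were the lipolysis genes *Pnpla2*, *Lipe*, *Plin1*, *Abhd5*, *G0s2* and *Mgll*, of which *Pnpla2*, *Lipe*, *Plin1* and *G0s2* were also lower in BAT at d0, together with *Pth1r*, a parathyroid hormone receptor gene. These names were read after their values were seen.

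Over d0 to d3 in BAT siCtrl cells, 33 of 80 further pathway genes tested rose and 36 fell, against 29.9% and 35.3% of all genes. The median log2 fold change was -0.27 against -0.10 for all genes. Lipolysis genes rose in 6 of 6 cases, led by *Pnpla2* (68.0 to 2776 FPKM, limma adjusted p = 1.82e-08). Receptors were exchanged. Among those of the stimulatory G protein *Mc5r* rose most and *Ptger4*, a prostaglandin E2 receptor gene, fell most (15.0 to 1.11 FPKM, adjusted p = 1.04e-07). *Hcar2*, the nicotinic acid receptor gene, went from 0.272 to 5.37 FPKM. The inhibitory alpha subunits went apart, with *Gnai1* at 16.2 and 189 FPKM (adjusted p = 3.19e-08) and *Gnai3* at 105 and 31.0 FPKM (adjusted p = 1.72e-07). So did the cyclases, *Adcy5* rising 7.84-fold (adjusted p = 2.01e-07) and *Adcy7* going from 7.71 to 0.814 FPKM. Of the phosphodiesterases other than *Pde3b*, *Pde1a* rose 2.77-fold (adjusted p = 2.85e-06). *Arrb1*, a beta-arrestin gene, rose 1.60-fold (adjusted p = 0.000281) and *Grk6*, a receptor kinase gene, went from 39.1 to 15.2 FPKM (adjusted p = 5.6e-07). The PKA inhibitor gene *Pkig* rose 1.43-fold (adjusted p = 0.000754), and the anchors *Akap7* and *Akap12* went from 5.66 to 46.7 and from 98.1 to 17.7 FPKM (adjusted p = 2.28e-05 and 3.08e-07). The CREB factor gene *Crem* went from 6.11 to 14.2 FPKM and the CREB coactivator gene *Crtc1* from 5.37 to 2.35 FPKM (adjusted p = 3.04e-05 and 0.000658). Of 12 cAMP-induced genes 5 rose and 5 fell, with *Ucp1* going from 0.0204 to 12.1 FPKM and *Nr4a1* from 34.1 to 2.30 FPKM (adjusted p = 6.19e-08). *Hcar2*, *Ucp1* and *Mc5r* passed the filter on low values through their d3 libraries alone, and *Adcy7* through its d0 libraries alone. No fold or p is thus given for their changes here, and the counts above include them.

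The pattern of each gene over the 24 libraries was compared with that of 12610 named genes as a description, since the libraries share depot, day and medium. *Adrb1* was most like *Rpl39l*, *Lhx8*, a transcription factor gene of the brown lineage, and *Mybpc1*, a muscle gene, with Pearson r of 0.973, 0.972 and 0.960. *Adrb3* was most like *Rasd1*, *Rnf144a* and the lipid droplet gene *Pnpla3* (0.978, 0.977 and 0.972), and *Adora1* like the brown fat respiratory gene *Cox8b*, *Pla2g16* and *Htatip2* (0.977, 0.976 and 0.972). *Mrap* went with *Pigyl*, *Tspo* and *Mgst1* (0.996, 0.996 and 0.995). *Prkaca* went with *G6pdx*, *Hsd17b12* and the peroxisomal gene *Pex19* (0.995, 0.994 and 0.994), *Prkar2b* with *Ces1d*, *Emc2* and *Mmp28* (0.994, 0.994 and 0.994), and *Pde3b* with *Abhd15*, *Pcx*, the pyruvate carboxylase gene, and *Fitm2* (0.999, 0.998 and 0.997).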

How the data were processed

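RNA was sequenced as 24 libraries, and groups and replicate numbers came from the sample titles, in which siKO marks the controls. The authors deposited 1 table of expression values that names no unit. They were taken as FPKM, since the study's methods name Cufflinks and the column sums (710794 to 841456) differ between libraries. The authors had processed the reads in the QuickNGS workflow, aligned them to GRCm38 with TopHat2 (2.0.10 in the submitters' processing notes, which also list STAR, with no role given) and estimated FPKM with Cufflinks (2.2.1 in those notes) on Ensembl. The labels describe a directional kit and paired reads, the methods single-end reads. No per-sample column was left out (0).

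Values were transformed to log2(FPKM + 1), which understates changes of low genes. Each comparison was fitted in limma 3.58.1 (R 4.3.3, eBayes with a trend) using the libraries it compares. A gene entered where 3 or more of these reached FPKM 1, and p-values were adjusted over all genes tested. The fit was tested on simulated data. Genes under the filter were compared by an exact permutation test on FPKM (scipy 1.17.1). Replicates correlated at r = 0.974 to 0.981, so all were kept. Nothing says that they came from separate animals, so p-values measure the spread between these libraries. Alternatives were a pseudocount of 0.1, no filter, median ratio scaling, a spread from all 24 libraries, a replicate block, no minimum fold and leaving out each library.

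The 8 genes and all lists were chosen with earlier results of these data known. Non-members were named by a rule (the largest called rise and fall per pathway role, and the 3 most alike patterns). *Adora2b*, *Prkacb*, *Prkar1a*, *Prkar2a* and *Pde3a* were added after their values were seen, to give family shares, and *Mc2r* and *Mrap2* likewise beside *Mrap*. *H19* has no symbol in the table and was matched by its Ensembl identifier. The listed genes *Adora3*, *Adrbk1*, *Adrbk2* and *Acta1* were not analysed here.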

Additional observations from a re-analysis of the deposited data

Results flagged for a closer look

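In 9 cases the effects of a contrast in separate groups differed by a test of the difference itself (limma interaction, adjusted over all genes). Between depots, the siH19 effect at d3 differed for *Mrap* (-0.23 on the log2 scale, BAT minus vWAT), *Prkar2b* (-0.31) and *Pde3b* (-0.40). The call of *Mrap* was lost in 9 of 12 fits without a single library, with a replicate block, without the filter on low values and with the spread from 24 libraries, and that of *Pde3b* with the spread from 24 libraries. Between days in BAT, the siH19 effect differed for *Mrap* (0.46, d3 minus d0), a call lost after median ratio scaling (adjusted p = 0.0994), without the filter (0.0526) and in 6 of 12 fits without a single library. Between depots, the rise from d0 to d3 in siCtrl cells was larger in BAT for *Mrap* (2.23), *Pde3b* (1.96), *Prkar2b* (0.76), *Adrb3* (0.56) and *Prkaca* (0.29). With 3 libraries a group, no test for a single outlying library was made.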

How the results depend on the processing

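The counts of called genes from d0 to d3, between depots, and for the difference between depots in the change from d0 to d3 stayed within 1.5 times their value under every alternative run. In BAT at d3 after knockdown, 1 gene became 2 with median ratio scaling and 4 without a minimum fold change, and stayed at 1 without any single library. In BAT at d0, 2 became 0 without a filter, 4 with the spread from 24 libraries, 0 with a replicate block, and 0 to 1 with a library left out. In vWAT at d0, 4 became 0 without a filter, 0 with a replicate block, and 0 to 4 with a library left out. For the depot difference of the siH19 effect at d3, 3 became 1 with the spread from 24 libraries and 2 to 4 with a library left out. For the day difference in BAT, 1 became 3 with a pseudocount of 0.1, 0 without a filter, 0 with scaling, 4 with the spread from 24 libraries, 2 with a replicate block, and 0 to 3 with a library left out. The cause was not tested. Over all genes, calls in BAT at d3 went from 1071 to 2023 without a minimum fold and 631 to 916 with a library left out. In vWAT at d3 they went from 4 to 20 (24 libraries), 0 (block) and 1 to 5 (a library left out), in BAT at d0 from 245 to 35 (no filter), 518 (24 libraries), 2 (block), 395 (no minimum fold) and 4 to 74, and in vWAT at d0 from 200 to 65, 385, 2 and 37 to 122. Between depots at d0 they went from 4096 to 6386 without a minimum fold, and for the depot and day differences of the siH19 effect from 1451 to 889 to 1432 and from 1230 to 801 to 1091 with a library left out. Same-numbered replicates shared little of their deviations (correlations -0.143 to 0.088, in no comparison all over 0.1). With 3 libraries a group this cannot exclude a pairing, and the titles number the replicates without saying whether they were paired.

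Changes of sign concerned uncalled values. *Adrb1* turned to -0.051 (pseudocount 0.1) and -0.0051 (scaling) in the depot difference of the siH19 effect and to -0.22 (pseudocount 0.1) in that of the change from d0 to d3, and with a library left out ran from -0.025 to 0.15 and from -0.10 to 0.077. Its change from d0 to d3 in BAT ran from -0.019 to 0.16 with a library left out, and that of *Mrap* in vWAT at d3 after knockdown from -0.045 to 0.0061. After scaling, the day differences of *Prkaca* and *Prkar2b* turned to -0.11 and -0.048 and the depot difference of *Adora1* in the change from d0 to d3 to 0.045, and *Prkaca* ran from -0.016 to 0.047 with a library left out. Over the 957 values of single genes under alternatives, 855 kept direction and call, 61 lost the call, 23 gained it and 18 turned. Total depth is unknown, which sets no floor for *Adora2a* and for *Adrb1* in vWAT.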
